A study of Mus musculus with 15 samples.

Results

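The genes described here are 62 developmental transcription factor genes outside the Hox clusters, taken from 21755 protein-coding genes of the mouse annotation by their symbols alone. They comprised every protein-coding gene named Pax, Lhx, Tbx, Irx or Dlx followed by a number, the sine oculis homeobox genes, and those named Nkx followed by a pair of hyphenated numbers. The families held 14 Nkx, 13 Tbx, 9 Pax, 8 Lhx, 6 sine oculis, 6 Irx and 6 Dlx genes. No measured value entered this rule, but the set was chosen with earlier results of these data known.

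H3K4me3, the trimethyl mark on lysine 4 of histone H3 found at active and poised promoters, was mapped by PAT-ChIP-seq, a chromatin immunoprecipitation suited to fixed tissue blocks in paraffin, in livers of 15 C57BL/6 female mice (C57BL/6J in the study's methods), 1 library per mouse and 3 mice per diet. The diets were a standard diet (SD), caloric restriction (CR), which was the same standard food in a smaller daily ration, a high-fat diet (HF), a diet with yellow corn lacking anthocyanins (YD) and a diet with purple corn rich in anthocyanins (RD). The last pair replaced the maize of the standard food. The diets began at 3 months of age and lasted 10 months, while the labels of all samples give an age of 12 months. The measurement is a list of islands per library, an island being a run of enriched 200-bp windows called by SICER2. The lists held 7825 to 33752 islands, and 17.5% to 54.6% of protein-coding genes had an island within 1 kb of a transcription start site (TSS). Of 11 marker genes of hepatocytes, the main cell type of the labelled tissue, 6 to 11 were marked per library. Absence of an island means only that no window run passed the caller, and in whole liver a mark in fewer cells and less mark per cell cannot be told apart.

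These families encode DNA-binding proteins that set up organs and cell types in the embryo. The Tbx genes carry a T-box, the Pax genes a paired domain, and the sine oculis, Irx, Lhx, Dlx and Nkx genes a homeodomain, which in Lhx proteins is joined to LIM domains. In cells that do not use them, such genes are typically held by Polycomb complexes with H3K27me3, often together with some H3K4me3 in the bivalent state first described in embryonic stem cells. Many have promoters rich in CpG dinucleotides, a sequence class that in most other genes carries H3K4me3 in nearly every tissue.

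To show that sequence class, the 250 bases before the start site are printed for 2 members with islands in several libraries and for 2 CpG-dense members with none. They were read from the RefSeq promoter table of GRCm38.p6 (mm10) and run 5′ to 3′ on the coding strand, with CG dinucleotides in capitals. Six5 lies at chr7:19094294-19094543 on the plus strand, Tbx20 at chr9:24774304-24774553 on the minus strand, Tbx1 at chr16:18588900-18589149 on the minus strand and Nkx6-2 at chr7:139582798-139583047 on the minus strand.
Six5: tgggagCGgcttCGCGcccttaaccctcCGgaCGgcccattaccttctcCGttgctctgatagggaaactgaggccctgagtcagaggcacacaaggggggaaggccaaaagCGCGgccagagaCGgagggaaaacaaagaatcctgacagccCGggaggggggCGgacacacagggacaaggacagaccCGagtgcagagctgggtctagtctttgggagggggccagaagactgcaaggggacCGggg
Tbx20: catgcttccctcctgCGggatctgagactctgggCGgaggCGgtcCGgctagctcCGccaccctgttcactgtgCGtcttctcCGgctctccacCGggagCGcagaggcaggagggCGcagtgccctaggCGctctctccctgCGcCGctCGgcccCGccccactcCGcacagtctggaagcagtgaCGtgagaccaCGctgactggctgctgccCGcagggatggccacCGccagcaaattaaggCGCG
Tbx1: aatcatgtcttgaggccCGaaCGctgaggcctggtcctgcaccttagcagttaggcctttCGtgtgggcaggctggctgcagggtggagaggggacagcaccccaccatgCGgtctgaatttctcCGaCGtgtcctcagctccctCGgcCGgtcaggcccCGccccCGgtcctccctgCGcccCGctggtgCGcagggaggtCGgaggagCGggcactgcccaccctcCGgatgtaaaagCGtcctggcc
Nkx6-2: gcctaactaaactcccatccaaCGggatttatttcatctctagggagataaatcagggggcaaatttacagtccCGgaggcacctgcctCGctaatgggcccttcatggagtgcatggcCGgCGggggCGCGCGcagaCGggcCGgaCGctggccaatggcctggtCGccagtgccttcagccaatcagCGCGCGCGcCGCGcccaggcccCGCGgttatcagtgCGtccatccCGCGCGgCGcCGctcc

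The windows of Tbx1 and Nkx6-2, at which no library had an island, held 17 and 26 CG dinucleotides. The Six5 window, overlapped by islands of 5 libraries, held 13. The Tbx20 window held 22 and was overlapped by none, since the islands at Tbx20 lay downstream. The promoter table had entries for 44 of the 62 members. Its 55 member promoters held a median of 14 CG dinucleotides, against 6 over all 32851 promoters. The letters GGGCGG, the core recognised by Sp1-type factors, were found on either strand in 33 of these 55 promoters (60.0%) and in 32.7% of all promoters. These matches describe the letters only.

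Most members carried no island in adult liver. An island lay within 1 kb of any TSS in at least 1 library at only 10 of 62 members, and 52 members (83.9%) had none in any of the 15 libraries. Among all protein-coding genes 40.0% had none. Counted over gene and library pairs, 37 of 930 pairs of members were marked (3.98%), against 37.6% of all coding pairs. No member was marked in all 15 libraries, as 9.46% of coding genes were. The 39 Hox genes stood close to the members, with 71.8% unmarked throughout and 4.10% of pairs marked. The 1134 olfactory receptor genes, which liver does not use, had 72.9% unmarked and 2.89% of pairs marked.

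Marked members were few in every family. The T-box family had 3 marked genes of 13 (Tbx3, Tbx20 and Tbx2) and 19 of the 37 marked pairs. The sine oculis family had 2 of 6 (Six5 and Six4) with 10 pairs, and the Irx family 2 of 6 (Irx3 and Irx5) with 4 pairs. Lhx2 was the marked gene among 8 Lhx genes, Pax6 among 9 Pax genes and Nkx2-6 among 14 Nkx genes. None of the 6 Dlx genes, patterning factors of the face, limbs and forebrain, was marked.

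The unmarked members included Dlx1 to Dlx6, Irx1, Irx2, Irx4 and Irx6, Lhx1, Lhx3, Lhx4, Lhx5, Lhx6, Lhx8 and Lhx9, Pax1 to Pax5 and Pax7 to Pax9, Six2, Six3 and Six6, Tbx1, Tbx4, Tbx5, Tbx6, Tbx10, Tbx15, Tbx18, Tbx19, Tbx21 and Tbx22, and Nkx1-1, Nkx1-2, Nkx2-1 to Nkx2-5, Nkx2-9, Nkx3-2, Nkx6-1, Nkx6-2 and Nkx6-3. Among them were Pax5, the B cell identity factor, and Tbx21, which directs type 1 T cells. The defining lymphocyte genes were similarly bare, with 0 of 8 T and NK cell markers marked in every library and 0 or 1 of 8 B cell markers. For the unmarked members the median of the distances to the nearest island was 87.8 kb. Only 3 of the 52 (Lhx6, Tbx6 and Nkx3-2) had an island within 3 kb in any library, and 6 had one within 10 kb, the others being Tbx10, Lhx1 and Tbx22. An island touched the gene body of 2 of them, Lhx6 and Tbx10.

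The members stood apart from other genes of like base composition. The CpG ratio is the observed over expected CG count in a 1000-bp window around a TSS. Each gene was given the highest ratio among its start sites, so genes with more start sites could rank higher. It had a median of 0.732 over members (range 0.160 to 1.03) and 0.630 over other coding genes. At or above the median coding gene lay 45 of the 62 members. The 8033 other coding genes with a ratio at or above the members' median were marked in 63.6% of gene and library pairs, from 29.9% in YD_3 to 86.4% in HF_1. In the CpG-densest of 10 equal bins of coding genes the other genes were marked in 66.7% of pairs and the 8 members there in 10.8%. All marked pairs of these 8 members were of Tbx3, and the rest had no island in any library. The CpG ratio of the marked members (median 0.756) was close to that of the unmarked ones (0.726).

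**Figure D1:**
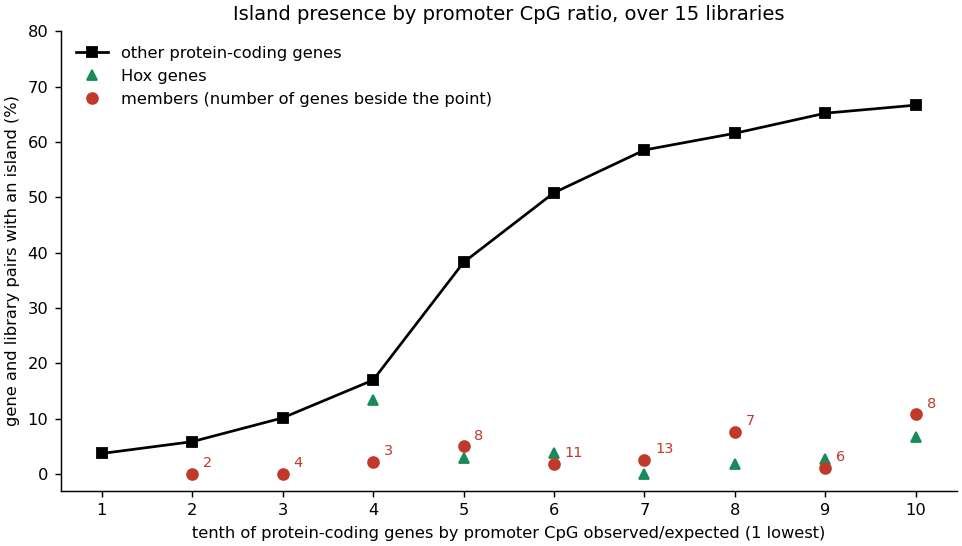
Share of gene and library pairs with an island (vertical axis, %) against the rank bin of protein-coding genes by CpG ratio (horizontal axis, bins 1 to 10, 1 lowest). Black squares are other coding genes, red points the members with their number of genes beside them, and green triangles Hox genes. The black line climbs to 66.7% while the members stay at or under 10.8%. The member value in bin 10 comes from Tbx3 alone.

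By library, 2, 6 and 1 members were marked in SD_1, SD_2 and SD_3, and 2, 3 and 3 in the CR libraries. The HF libraries had 6, 2 and 7, the YD libraries 1, 0 and 0 and the RD libraries 2, 1 and 1. SD_2, HF_1 and HF_3 stood above the other 12 libraries, and HF_2 lay among the lower ones. The mean number of marked members was 3.0 ± 2.65 (SD, n = 3) on the standard diet, 5.0 ± 2.65 on HF and 2.67 ± 0.577 on CR, and it was 0.333 ± 0.577 on YD and 1.33 ± 0.577 on RD. The HF and SD ranges overlapped. YD overlapped SD at 1 member, and RD overlapped SD at 1 and 2.

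The share of all coding genes with an island was likewise highest in HF and lowest in YD, and its part in the members' counts was not tested. It was 43.1%, 43.0% and 32.7% in SD, 35.5%, 46.5% and 48.2% in CR, 54.6%, 47.6% and 51.5% in HF, 24.3%, 26.5% and 17.5% in YD and 31.2%, 34.7% and 27.8% in RD. HF_1 and HF_3 had the highest shares of the 15 libraries, while SD_1 and SD_2 had nearly the same share but 2 and 6 marked members. Hox genes were marked in 9, 3 and 5 genes of the HF libraries, in 0 to 2 in SD and CR, and in 0 of 39 in every YD and RD library. The longest lists, CR_3 and RD_2, had the most marked olfactory receptor genes (9.26% and 13.3%) but only 3 and 1 marked members.

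**Figure D2:**
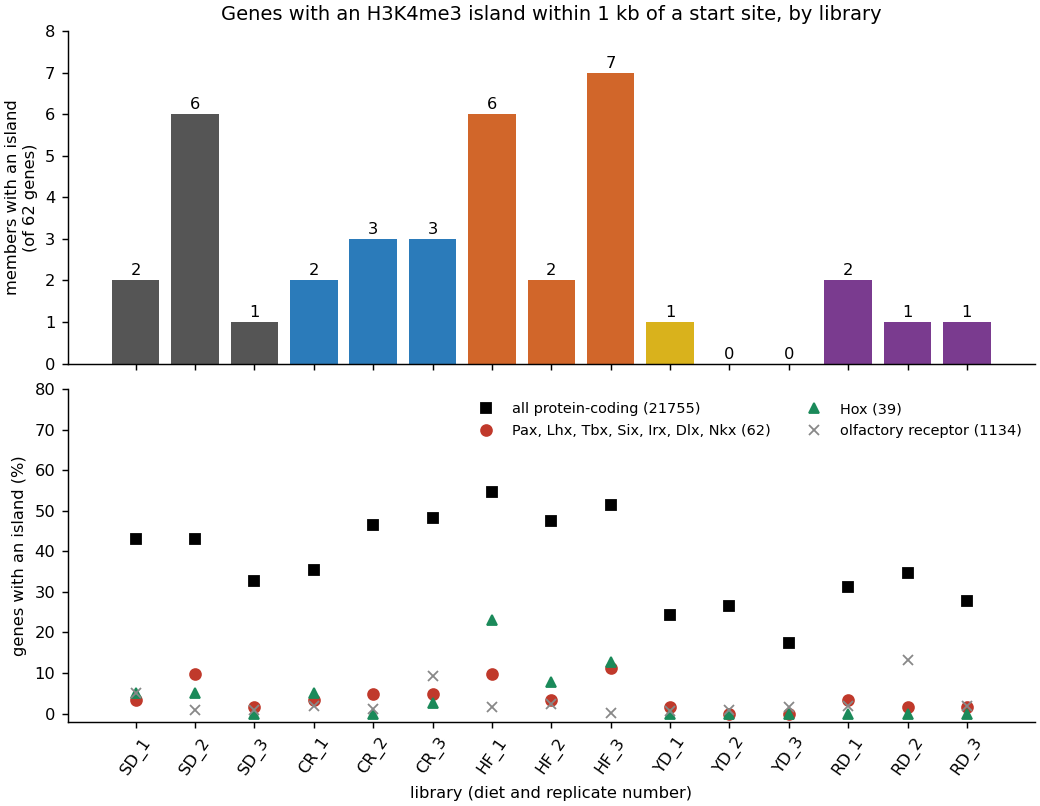
Top, number of the 62 members with an island within 1 kb of a start site in each library, coloured by diet; bottom, the share (%) of all coding genes, members, Hox and olfactory receptor genes. Members reach 6 or 7 in SD_2, HF_1 and HF_3 and 0 in YD_2 and YD_3, and the members' share lies below the coding share in all 15 libraries.

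At the 37 marked pairs the islands were slightly narrower than at other coding genes and ranked lower. The median width was 1800 bp against 2000 bp, and the median score percentile within a list, where 100 is the highest-scoring island, was 49.4 against 72.3. A start site lay inside the island in 22 of 37 pairs (59.5%), against 85.2% for other coding genes. Tbx3 and Six5 supplied 20 of the 37 pairs. The other 17 pairs had a median width of 1600 bp and a median percentile of 32.3.

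Tbx3, a T-box repressor needed for growth of the embryonic liver bud and long known as a target of Wnt signalling in liver, was the most widely marked member. Its gene spans chr5:119670669-119684724 (mm10, plus strand), and its island was present in 13 of 15 libraries. The islands were 3400, 3200 and 4600 bp wide in SD, 3000, 5000 and 5000 bp in CR and 5000, 4800 and 6600 bp in HF. In YD there was an island of 4000 bp in YD_1 and none in YD_2 and YD_3, and in RD the widths were 1600, 1600 and 1800 bp. By these widths, which are those of the widest island in each library, the 3 RD islands were narrower than every SD, CR, HF and YD_1 island, and the YD libraries spanned from none to a width inside the SD range.

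The Tbx3 islands were broad for their own lists except in RD. They were wider than 89.7%, 92.3% and 95.2% of islands in the SD lists, than 81.3%, 97.7% and 97.7% in CR, than 95.4%, 96.9% and 98.8% in HF and than 78.1% in YD_1. In the RD lists this share was 49.1%, 8.06% and 61.3%. The score percentiles followed a similar order, at 76.5, 90.4 and 94.9 in SD, 58.0, 91.6 and 98.7 in CR, 92.2, 95.8 and 93.3 in HF, 89.8 in YD_1 and 79.8, 35.8 and 54.8 in RD. Here RD_1 exceeded SD_1 and CR_1, so that the ranks overlapped where the widths did not.

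The stretch common to all 13 Tbx3 islands was chr5:119671401-119672800, a run of 1400 bp from 732 to 2131 bases downstream of the first TSS. All of it was exonic in some transcript, with 389 coding and 615 untranslated bases. The island covered a Tbx3 start site in 9 of 13 libraries. The antisense gene Tbx3os1 also had a start site within 1 kb of these islands, and since the lists carry no strand, marks of the pair cannot be told apart. In YD_3 the nearest island lay 1583 bp from a Tbx3 start, and in YD_2 it lay 796552 bp away.

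**Figure D3:**
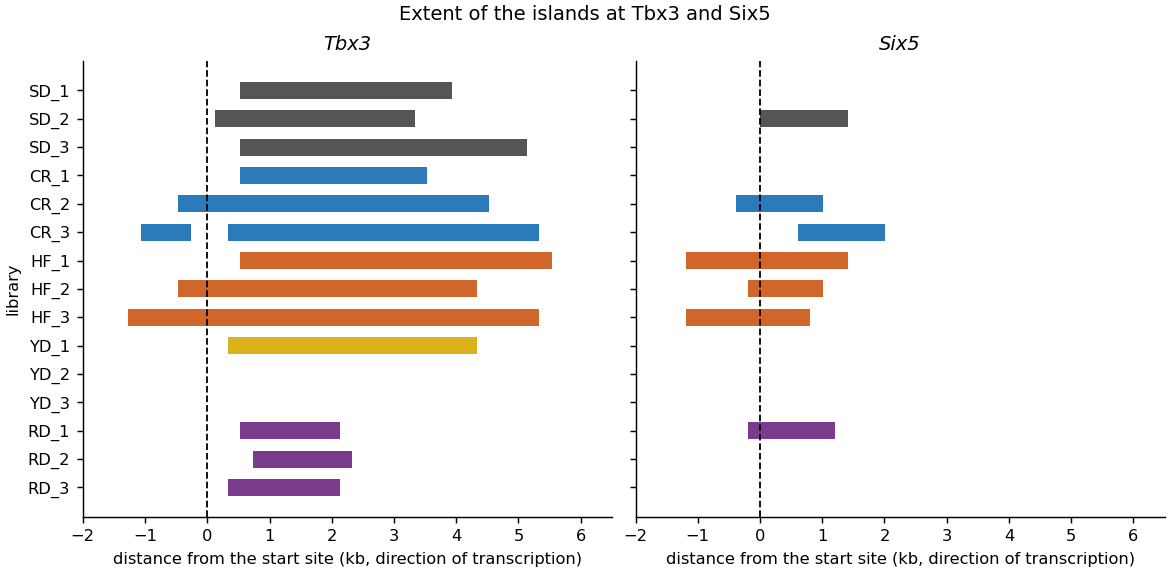
Extent of each island at Tbx3 (left) and Six5 (right) in the 15 libraries (rows, coloured by diet), as distance from the start site in kb along transcription, with the start as a dashed line. Tbx3 bars reach 3 to 6 kb downstream in SD, CR, HF and YD_1 and stop near 2 kb in the 3 RD libraries, and Six5 has bars in 7 libraries.

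Six5, a homeobox gene that neighbours the myotonic dystrophy kinase gene, came next, with an island in 7 libraries (chr7:19094594-19098549, plus strand). Its widths were 1400 bp in SD_2, 1400 bp in CR_2 and CR_3, 2600, 1200 and 2000 bp in HF_1, HF_2 and HF_3, and 1400 bp in RD_1. HF was thus the only diet with Six5 marked in all 3 mice, and YD the only one with it marked in none. Its score percentile was 57.6 in SD_2, 66.8 and 46.8 in CR, 57.5, 49.5 and 46.2 in HF and 39.7 in RD_1, which placed it in the middle of the lists. The 7 islands shared 200 bp of coding exon, chr7:19095201-19095400. Six4, a homeobox gene of muscle development, was marked in CR_2 (1400 bp), CR_3 (1000 bp) and HF_3 (1600 bp), over a common stretch of 1000 bp downstream of its first TSS.

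The other marked members fell mostly in the same libraries. Of the 17 pairs outside Tbx3 and Six5, 13 were in SD_2, HF_1 and HF_3, and 8 libraries had none, namely every YD and RD library, SD_3 and HF_2. Irx3, an Iroquois factor of neural patterning that also acts in adipose tissue, was marked in SD_2 (1000 bp), HF_1 (1800 bp) and HF_3 (1400 bp). Tbx20, a cardiac T-box factor, was marked in the same 3 libraries at 1400, 1200 and 3400 bp. The 3 Irx3 islands shared 600 bp in the untranslated part of an exon, with a start of the antisense gene Irx3os within 1 kb, while the Tbx20 islands had no base in common.

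Tbx2, a repressor close in sequence to Tbx3, had an island of 200 bp in SD_2, 2200 bp in CR_1 and 1800 bp in HF_1. The SD_2 island was a single window upstream of the start and overlapped neither of the other islands. Lhx2, known in forebrain, eye and hepatic stellate cells, was marked in HF_1 (3400 bp) and HF_3 (1200 bp). Irx5 was marked in HF_3 (3200 bp, percentile 4.84), Pax6, the eye and pancreatic islet factor, in SD_2 (1800 bp, percentile 10.7), and Nkx2-6, a factor of the pharynx and heart, in SD_1 (2000 bp, percentile 55.7). The Irx5 and Nkx2-6 islands also lay at the non-coding genes Crnde and 1700092C10Rik, and the Tbx2 islands of SD_2 and CR_1 at 2610027K06Rik.

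**Figure D4:**
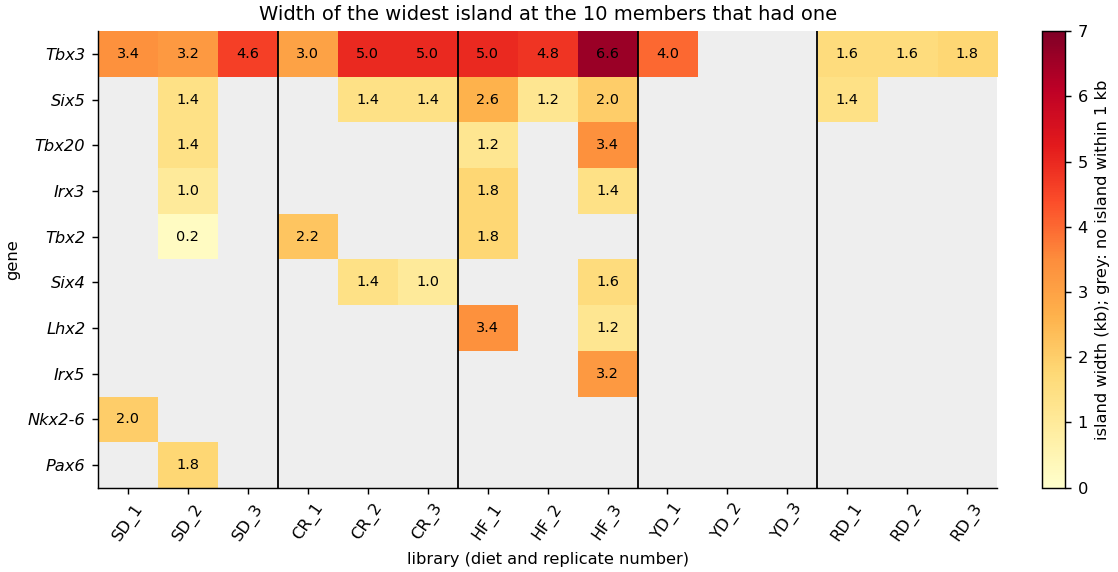
Width in kb of the widest island at each of the 10 marked members (rows) in the 15 libraries (columns, grouped by diet); grey cells had no island within 1 kb. Tbx3 fills 13 columns with 1.6 to 6.6 kb, Six5 fills 7, and the remaining cells gather in SD_2, HF_1 and HF_3.

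Markers of non-parenchymal cells also varied among these libraries. Of 8 stellate cell markers 5 were marked in HF_1, 2 in HF_3 and 1 in SD_2, against 0 to 3 elsewhere, with Ecm1 at 0 throughout. Of 8 sinusoidal endothelial markers 8, 6 and 2 were marked there, against 1 to 6 elsewhere. Kupffer cell markers reached 4 of 8 in HF_1, 1 in HF_3 and YD_3 and 0 elsewhere, and cholangiocyte markers 0 to 3 of 8. The part of these cells in the members' islands was not tested.

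Neighbouring members lay too far apart to share an island of the widths found. Start sites lay within 20 kb of each other for Dlx1 and Dlx2 (15170 bp) and for Dlx5 and Dlx6 (18270 bp), none of which was marked. No island lay within 1 kb of start sites of more than 1 member, and none could, as the widest at any member was 6600 bp.

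The diets were then compared by the island width at each gene, on the scale log2(width + 200 bp) with width 0 where no island was present. This scale understates differences at narrow islands, while the step from no island to an island weighs heavily. limma was fitted to the 11200 coding genes with an island in at least 3 libraries, and the Benjamini-Hochberg adjustment covered all of them. Of the 62 members 6 entered (Tbx3, Six5, Tbx20, Irx3, Tbx2 and Six4) and 56 did not. All contrasts with SD share the same 3 SD libraries. The median difference over all tested genes was 0.19 for CR against SD, 0.64 for HF, -1.08 with yellow corn and -0.53 with purple corn, and 0.33 for RD against YD, so a member's difference is read beside it.

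The purple and yellow corn diets together were compared with SD, CR and HF, since the study sets them apart. The study describes them as apart in the H3K4me3 profiles of these same libraries, so the grouping is not independent of the values compared. Tbx3 was narrower in YD and RD, by a log2 difference of -2.18 (SE 0.573, limma adjusted p = 0.0127), and was the only one of the 6 tested members called. The background was high, as 39.6% of tested genes were called narrower and 0.00893% wider, and the median difference over all genes was -1.24. The call was lost when each library was centred on its mean (-0.88, limma adjusted p = 0.364) and when the TSS had to lie inside the island (-2.33, limma adjusted p = 0.0875). Six5 differed by -1.62 (SE 0.658, limma adjusted p = 0.0621). Among omissions of single libraries it passed only without CR_1 (limma adjusted p = 0.0217) or without RD_1 (0.0252). Those fits called 5016 and 3476 of the 11200 tested genes. RD_1 was the only YD or RD library with a Six5 island, and CR_1 had none. Irx3 (-0.99), Tbx20 (-1.11), Six4 (-0.97) and Tbx2 (-0.88) did not pass, with limma adjusted p from 0.128 to 0.226. Irx3, Tbx20, Six4 and Tbx2 had no island in any YD or RD library, so they entered the fit through SD, CR and HF alone. In this fit their differences could only be negative. Among the omissions Irx3 passed only without HF_2 (-1.34, limma adjusted p = 0.0242), a fit that called 4596 genes. HF_2 was the only HF library without an Irx3 island.

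In base pairs, Tbx3 islands averaged 1500 ± 1474 bp (SD, n = 6) in YD and RD and 4511 ± 1141 bp (n = 9) in the other diets, with absent islands as 0. The difference of -3011 bp gave p = 0.000999 in a two-sided exact permutation test, of which the smallest possible p is 0.0002. The exact test was run only for Tbx3 and Six5, the members with the smallest limma p in this contrast. It reuses the same libraries, so it adds no independent support, and it was not run over all genes. Keeping only libraries with an island selects them by the measured width and drops YD_2 and YD_3. On the corn side it leaves YD_1 and the RD libraries. Among the 13 libraries kept the difference was -2261 bp (exact p = 0.00699), and this p is not a separate test of diet. The library names take 2 forms, PATChIP in 5 and ChIP in 10. Within the ChIP form it was -2760 bp (5 against 5 libraries, exact p = 0.0238), and within the PATChIP form -3250 bp for RD_1 against 4 libraries, where an exact p cannot fall under 0.2. The Six5 difference was -878 bp over all libraries (exact p = 0.0869), -1080 bp within the ChIP form (exact p = 0.167) and 250 bp, the opposite direction, within the PATChIP form (exact p = 0.8).

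Against SD, no member was called in any diet at an adjusted p under 0.05. In YD, where 7.04% of tested genes were called narrower and 0.0% wider, Tbx3 differed by -2.82 (SE 0.887, limma adjusted p = 0.0781), with mean widths of 1333 ± 2309 bp in YD and 3733 ± 757 bp in SD (n = 3 each). The value depended on YD_1, without which the difference was -4.28 (limma adjusted p = 0.000588). YD_1 was the only YD library with a Tbx3 island, so its omission left only absent islands. That fit called 1152 genes, against 788 with all libraries. In RD, where 0.875% were called narrower and 0.0179% wider, Tbx3 averaged 1667 ± 115 bp and differed by -1.06 (SE 0.887, limma adjusted p = 0.743). All 3 RD widths lay below all 3 SD widths, as for 4.56% of all coding genes. Tbx20 (-1.0 in both diets) and Irx3 (-0.86 in both), each marked in SD_2 alone among these libraries, came next and did not pass, with limma adjusted p of 0.496 and 0.504 in YD and 0.744 and 0.745 in RD.

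HF islands were broader at many genes, with 3.04% of tested genes called wider than in SD and 0.0179% narrower. Six5 had the largest difference among members, 2.36 (SE 1.02, limma adjusted p = 0.320), with mean widths of 1933 ± 702 bp in HF and 467 ± 808 bp in SD. Irx3 (1.25, limma adjusted p = 0.589) and Tbx20 (1.33, limma adjusted p = 0.619) followed. Tbx3 averaged 5467 ± 987 bp in HF and differed by 0.53 (limma adjusted p = 0.874), although its 3 HF widths all exceeded its 3 SD widths, as did those of 9.36% of coding genes. By presence, with at least 2 of 3 libraries of a diet against 0 of 3 of the other, Lhx2 was gained in HF, beside 4.69% of coding genes gained and 0.0735% lost.

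In CR, where 0.196% of tested genes were called wider and 0.00893% narrower, Six4 had the smallest p, with a difference of 1.86 (SE 0.845, limma adjusted p = 0.868). Tbx20 (-1.0) and Irx3 (-0.86), both marked in SD_2 and in no CR library, had limma adjusted p of 1.0. Six4 was also gained by presence, beside 1.79% of coding genes gained and 0.336% lost. Tbx3 averaged 4333 ± 1155 bp in CR and differed from SD by 0.19.

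No member was gained or lost by presence in YD or RD against SD, where 9.46% and 3.92% of coding genes were lost and 0.0368% and 0.221% gained, or in RD against YD, where 3.81% were gained and 0.244% lost. A member could count as lost only where it was marked in at least 2 SD libraries, which held for Tbx3 alone. For widths not to overlap, the wider diet needs an island in all 3 of its libraries. That held only for Tbx3, in every diet but YD, and for Six5 in HF. Widths without overlap between diets were found for Tbx3 alone, wider in HF and narrower in RD than in SD. The share of coding genes wider or narrower in this way was 9.36% or 0.0827% in HF, 0.202% or 4.56% in RD, 2.78% or 0.625% in CR and 0.0322% or 8.4% in YD, each against SD, and 2.44% or 0.115% in RD against YD.

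Between RD and YD, where 1.16% of tested genes were called wider in RD and 0.0268% narrower, Tbx3 differed by 1.76 (SE 0.887, limma adjusted p = 0.513). Without YD_1, the only YD library with a Tbx3 island, this became 3.22 (limma adjusted p = 0.00124). That fit called 307 genes, against 133 with all libraries. Six5 differed by 1.0 (limma adjusted p = 0.806), and Irx3 by 0.0. At an unadjusted p under 0.05 stood 1 member each in CR, HF and YD against SD, 0 in RD against SD and in RD against YD, and 2 in the corn contrast. Of the 11200 genes tested 626, 1530 and 2834 stood there in CR, HF and YD, 1269 in RD against SD, 1199 in RD against YD and 6117 in the corn contrast. Over all 5 diets, where 18.5% of tested genes were called, Tbx3 (limma adjusted p = 0.0618), Six5 (0.142) and Irx3 (0.196) did not pass.

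Genes of Polycomb repressive complex 2, which deposits H3K27me3, had islands in 4 to 11 of 11 genes per library, lowest in YD_3 and YD_1. In the corn contrast 5 of 10 tested were called narrower (Eed, Mtf2, Phf1, Rbbp4 and Suz12) and 0 wider, with a median difference of -1.22, beside the median of -1.24 over all genes. The H3K27 demethylases and bivalent-promoter H3K4 methyltransferases had islands in 3 to 5 of 6 genes per library, with Kdm6b marked in none, and 0 of 5 tested were called. Partners of the members' proteins, such as LIM-binding and Groucho-type cofactors, were marked in 3 to 8 of 12 genes, and 3 of 7 tested were narrower in the corn contrast (Ldb1, Ldb2 and Tle3). For hepatocyte markers 3 of 11 were called narrower there, for endothelial markers 2 of 6, and for cholangiocyte and stellate cell markers 0 of 2 each, beside the 39.6% of all tested genes called narrower in this contrast. In YD against SD the called genes of these lists were Mtf2, Suz12, Tle3 and the stellate cell marker Hand2, all narrower, and no other contrast with SD or between the corn diets called any.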

How the data were processed

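The authors aligned 50-bp single reads to mm10 with bwa, removed unmapped reads, reads with MAPQ under 1, duplicates and reads off chromosomes 1 to 19 and X, and called islands per library with SICER2 (window 200 bp, gap 400 bp), without pooling mice. The deposited lists give island positions and a score, the sum of minus natural log Poisson probabilities over enriched windows. Scores of different libraries are on different scales, and each was turned into a percentile of its list. Tool versions are not given in the sources used here.

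Islands within 1 kb of a TSS of GENCODE M21 (53843 genes, 139486 transcripts) were assigned to genes, and the widest was kept. Reads per library, recovered from the steps in score of single-window islands with an assumed effective genome fraction of 0.74, ranged from 5589269 (CR_1) to 15449854 (YD_1), with a median of 9547841. The YD_1 value rests on only 2 steps, as does that of HF_3, and it fitted its steps least closely of all libraries. Reads per island are unknown, so no counting interval is given. Diets and replicate numbers came from the labels. Each mouse is a separate animal, and animals came from shared litters that the labels do not assign.

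limma 3.58.1 (R 4.3.3) was run on log2(width + 200 bp) over all 15 libraries with a threshold of 0.05, after the script had been tested on simulated data. Exact permutation tests enumerated all arrangements in Python 3.11.15 with numpy 2.4.6. The recovery of reads used scipy 1.17.1, and pandas 2.3.3 and matplotlib 3.10.9 were also used. The alternatives were a pseudocount of 1000 bp, no filter, summed width, TSS within 3 kb or inside the island, equal numbers of highest-scoring islands (7825), islands of at least 600 bp, score percentile, 3 of 3 libraries for presence, a replicate block, omission of each library and, added after seeing the data, centring.

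Members named were those marked, those called or with the 3 smallest p-values per contrast, those gained or lost, close pairs and, by name only, unmarked members. Promoters printed were those of the 2 members with most libraries and the 2 with the highest CpG ratio among the unmarked that had a table entry. The members and lists were chosen with earlier results of these data known. Some members are counted but not reported by name here. Sequencing reads, input controls and gene expression were not used here.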

Additional observations from a re-analysis of the deposited data

How the results depend on the processing

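The members' absolute counts and the numbers of called genes moved with the processing. The Tbx3 difference between the corn diets and the rest kept its sign in all alternatives. Its call was lost with centring and with the TSS inside the island. A negative sign was also the common direction, as the median difference over all tested genes was -1.24. Called genes in the contrasts CR, HF, YD and RD against SD, RD against YD, corn against the rest and all 5 diets numbered 23, 342, 788, 100, 133, 4433 and 2077. With the same number of highest-scoring islands per list they numbered 13, 67, 32, 55, 17, 1474 and 413. With values centred on each library's mean, an alternative chosen after seeing the data, they were 11, 93, 0, 25, 80, 68 and 105. Without the filter HF had 218, YD 373, RD 63, corn 2498 and all diets 1026. With the TSS inside the island YD had 452, RD 47 and RD against YD 54, with a pseudocount of 1000 bp CR had 5, RD 30 and RD against YD 29, and with the score percentile CR had 8, HF 120 and RD 14.

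Leaving out each library in turn gave 22 to 118 (CR), 173 to 536 (HF), 354 to 1247 (YD), 68 to 224 (RD), 110 to 314 (RD against YD), 3027 to 5365 (corn) and 1141 to 2574 (all diets). Members gained or lost were 0 to 2 in CR, 0 to 4 in HF, 0 to 1 in YD and 0 to 1 in RD against YD, a choice also made after seeing the data. The share of all coding genes gained or lost was not computed for these omissions, so the counts have no background. With all libraries the shares gained and lost were 1.79% and 0.336% in CR and 4.69% and 0.0735% in HF. They were 0.0368% and 9.46% in YD and 3.81% and 0.244% in RD against YD. Mean marked members per library were 1.5 to 4.0 in SD, 4.0 to 6.5 in HF, 0.0 to 0.5 in YD and 1.0 to 1.5 in RD.

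By presence, Six4 in CR was not counted (0 members) with the TSS inside the island, with equal numbers of islands or with 3 of 3 libraries. In HF the count of 1 became 3 within 3 kb, 2 with the TSS inside and 0 with equal numbers or 3 of 3 libraries. The share of all coding genes gained or lost was not computed under these alternatives either. Marked members per library fell with equal numbers of islands to 1.67 in CR, 1.33 in HF and 0.667 in RD. With the TSS inside they were 1.0 in CR and 0.667 in RD, with CR at 4100 bp and a score percentile of 89.0, and within 3 kb YD had 1.0. Signs reversed, without a call, for Tbx20 (0.18) and Irx3 (0.32) in YD against SD and Irx3 in the corn contrast (0.31) when centred, and for Tbx3 in RD against YD with the TSS inside (-0.36). The cause was not tested.

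Same-numbered libraries of different diets did not deviate together (mean r -0.00501 over 30 pairs, highest 0.0900), so the numbers do not pair them. With replicate number as a block 4270 genes were called in the corn contrast, and Tbx3 kept a limma adjusted p of 0.0181. Over the omission of each library its limma adjusted p ranged from 3.04e-05 to 0.0359, while the call was lost with centring and with the TSS inside the island. Unknown reads per island limit what the absence of an island shows, and 3 mice per diet limit the contrasts.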
